A study of Mus musculus with 2 samples.

Results

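The epicardial and mesothelial genes are a set of 8 genes named by symbol: Upk3b, Upk1b, Msln, Wt1, Lrrn4, Krt8, Krt18 and Krt19. All 8 were found among the 55536 annotated mouse genes. They were measured by total RNA sequencing of heart tissue from 2 adult female mice, aged 8 to 10 months. Their strain was B6CASTF1/J, a cross of the inbred strains C57BL/6J and CAST/EiJ. The animals form 1 group, with no treatment named and 1 library each. The animals carry the numbers 1 (called replicate 1 here) and 3 (replicate 2), on which n = 2 rests, since their donor identifier is the same. Levels are in TPM (transcripts per 1000000, a level corrected for transcript length), given as mean ± SD (n = 2) or for each animal. No test was made, since the smallest two-sided p of an exact sign-flip test with n = 2 is 0.5.

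The heart is wrapped in the epicardium, a single sheet of mesothelium, the epithelium that also lines the lung surface and the abdominal cavity. Mesothelial cells are unusual in combining epithelial keratins with an origin in mesoderm. In the embryo, WT1 and retinoic acid signalling mark the epicardium, whose cells undergo epithelial-to-mesenchymal transition (EMT) and give rise to fibroblasts and mural cells of the heart. In the adult the sheet is thin beside the muscle, vessels and fibroblasts that it covers. In bulk tissue, fewer cells of a type and less RNA per cell cannot be told apart.

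The Wt1 transcripts can be sorted by a short splice choice, shown here because the shares of the transcripts differed between the animals. An exon of the zinc finger region ends at either of a pair of donor sites (mm10, plus strand), and the longer form carries 9 extra bases at chr2:105170010-105170018. They add the amino acids lysine, threonine and serine (KTS) between the last zinc fingers, with the serine codon completed by the bases after them. The forms with and without KTS are known to differ in DNA and RNA binding. The capitals mark the 9 bases, with 30 bases of the GENCODE transcripts on each side.

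Wt1 +KTS: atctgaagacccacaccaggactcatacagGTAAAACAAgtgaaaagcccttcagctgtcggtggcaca

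Wt1 -KTS: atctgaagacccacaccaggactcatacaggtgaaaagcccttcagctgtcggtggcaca

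A promoter sequence was at hand in RefSeq (GRCm38.p6) for 4 of the 8 genes: Upk3b, Lrrn4, Krt8 and Krt18. Those of Upk3b and Lrrn4, the pair whose intervals did not overlap between the animals, are shown upstream of the annotated start, at chr5:136038246-136038495 (plus strand) and chr2:132880892-132881112 (minus strand). Capitals mark the letters CATTCC, or their reverse complement GGAATG, the core motif of TEAD factors, which act in the Hippo pathway. The motif lay 241 bases before the start of Upk3b and 167 bases before that of Lrrn4. It was not in the windows of Krt8 or Krt18, which here held 110 and 214 bases. The TEAD motif was chosen with the levels known, and 12.6% of 32851 upstream windows of 250 bases hold it on either strand. Other short promoter motifs were searched as well and lay in none of the windows of the 4 genes. Those motifs are held by 12.4%, 32.7% and 33.8% of the upstream windows. The TEAD matches are therefore a description of these letters only.

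Upk3b promoter: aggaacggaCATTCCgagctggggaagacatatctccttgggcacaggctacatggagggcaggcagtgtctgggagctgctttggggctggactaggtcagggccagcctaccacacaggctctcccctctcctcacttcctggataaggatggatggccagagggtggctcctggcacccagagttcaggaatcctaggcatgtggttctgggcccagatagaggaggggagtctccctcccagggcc

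Lrrn4 promoter: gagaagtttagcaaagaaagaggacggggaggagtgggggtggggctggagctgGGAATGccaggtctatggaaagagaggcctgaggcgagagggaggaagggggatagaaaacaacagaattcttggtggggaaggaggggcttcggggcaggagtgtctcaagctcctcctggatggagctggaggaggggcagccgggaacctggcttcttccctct

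All 8 genes were detected in both hearts, at levels far below those of muscle genes. Their TPM summed to 15.7 in replicate 1 and 20.5 in replicate 2 (18.1 ± 3.39). Tnnt2, the troponin T of cardiac muscle, alone exceeded that sum 207-fold and 153-fold. Upk3b stood above 67.1% and 74.1% of protein-coding genes and Krt8 above 43.4% and 47.4%. Upk3b and Msln together held 54.2% and 59.8% of the sum. In both animals Upk3b was first and Msln second, Krt18 was below Krt19, and Krt8 was last. Lrrn4 and Wt1 exchanged places, with Krt19 between them in both animals. The means of Krt19, Lrrn4 and Wt1, 1.83 ± 0.16, 1.73 ± 0.64 and 1.69 ± 0.58 TPM, differed by less than the SD of Lrrn4 or Wt1. The means of Upk3b and Msln, 5.85 ± 1.36 and 4.52 ± 1.28 TPM, also lay within the larger of their SDs of each other, as did those of Upk1b and Krt18, 1.07 ± 0.042 and 0.91 ± 0.28 TPM. Of the 8 genes, 6 reached 1 TPM in both animals, against 20.9% of all genes and 48.7% of protein-coding genes. The exceptions were Krt8 and Krt18.

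**Figure D1:**
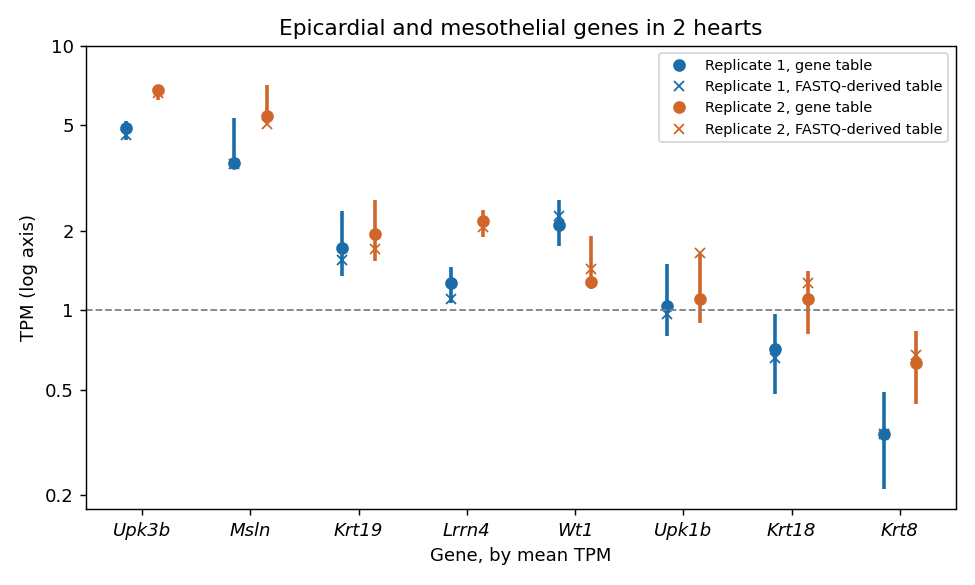
TPM (log axis) of the 8 genes in each animal. Circles are the gene table with its deposited credibility bounds as bars, crosses are the FASTQ-derived table, and the dashed line is 1 TPM. The intervals of the animals are apart for Upk3b and Lrrn4.

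Uroplakins are membrane proteins best known from the plaques of the bladder lining, where UPK1B is a tetraspanin that pairs with a UPK3 subunit. Upk3b (chr5:136038496-136046487, plus strand, mm10) is a marker of mesothelium in many organs. It stood at 4.88 TPM in replicate 1, from 563 expected counts, and at 6.81 TPM in replicate 2, from 792. The deposited credibility intervals, 4.40 to 5.19 and 6.22 to 7.14 TPM, did not overlap. Upk1b (chr16:38773184-38800328, minus strand) was lower, at 1.04 and 1.10 TPM from 58 and 67 counts, with overlapping intervals. Its replicate 2 value depended on the table: the FASTQ-derived transcript table, made from the reads apart from the alignment-derived one, gave 1.65 TPM, of which 0.628 TPM was a retained-intron transcript of 459 bases that rested on 5.3 counts. The coding transcript in that table stood at 0.967 and 1.017 TPM.

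The 4 other uroplakin genes were each under 0.1 TPM on average. Upk3a, the subunit of bladder plaques, had no count in either library, Upk1a was at 0.07 and 0 TPM, Upk2 at 0.03 and 0 TPM, and Upk3bl at 0 and 0.05 TPM. At the depth of these libraries no count still allows a level of 0.0711 (replicate 1) or 0.0740 (replicate 2) per 1000000 counts, counting error alone considered. The uroplakin RNA of these hearts was thus nearly all Upk3b and Upk1b.

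Msln (chr17:25748613-25754378, minus strand) encodes mesothelin, a lipid-anchored surface protein of mesothelium. It stood at 3.61 and 5.42 TPM, from 231 and 332 counts. The intervals, 3.55 to 5.35 and 5.16 to 7.14 TPM, overlapped slightly. Its transcripts could not be settled: the alignment-derived table was led by Msln-207 in replicate 1 (57.1%) and by Msln-201 in replicate 2 (36.3%), whereas the FASTQ-derived table was led by Msln-208 in both (69.6% and 72.5%). Muc16, the mucin to which mesothelin binds, was present at 2.32 and 2.88 TPM. It is named here for that pairing and not by level. Mslnl, the related gene on the opposite strand whose 3′ end lies 282 bases from that of Msln, had 1 count and none.

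Lrrn4 (chr2:132868305-132880891, minus strand) encodes a leucine-rich repeat membrane protein used as a mesothelial marker. It differed most between the animals among the 6 genes above the low-value filter, at 1.27 TPM from 155 counts in replicate 1 and 2.18 TPM from 267 counts in replicate 2. The intervals, 1.06 to 1.45 and 1.89 to 2.40 TPM, did not overlap. The gene has 1 annotated transcript and shares no 31-base word with another gene, as is also true of Upk3b.

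Wt1 (chr2:105126529-105173616, plus strand) encodes the zinc finger factor of the embryonic epicardium and kidney, and is also known from some endothelial cells. It was the only one of the 8 genes with a lower TPM in replicate 2, at 2.10 TPM in replicate 1 and 1.28 TPM in replicate 2, with overlapping intervals of 1.75 to 2.62 and 1.20 to 1.90. Its expected counts were 121 and 105, or 2.87 and 2.59 per 1000000, a ratio relative to the median gene of 0.982 (exact 95% counting interval 0.749 to 1.29). The effective length that divides the counts was 1715 bases in replicate 1 and 2425 bases in replicate 2. The TPM ratio relative to the median gene was 0.712, lower than that of the counts.

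The transcript shares differed as well. Wt1-204, of 1418 bases, led in replicate 1, holding 41.8% of the Wt1 TPM by alignments and 51.1% by the FASTQ-derived table. Wt1-205, of 3090 bases, led in replicate 2 with 57.7% and 50.7%. Its shares in replicate 1 were 0% and 15.4%. Both tables thus put different transcripts first in the animals, but the credibility bounds were wide. Those of Wt1-204 overlapped, at 0.33 to 1.28 TPM in replicate 1 and 0 to 0.44 in replicate 2. Those of Wt1-205 did not, at 0 to 0.27 TPM in replicate 1 and 0.33 to 0.81 in replicate 2. The FASTQ-derived table put Wt1-205 at 0.348 and 0.725 TPM. Its replicate 1 value there lies above the replicate 1 bounds and within those of replicate 2.

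Sorted by the splice choice printed above, transcripts with the KTS bases took 56.9% of the Wt1 TPM spanning the site in replicate 1 and 71.6% in replicate 2. In the FASTQ-derived table they took 43.8% and 76.9%. The 5 annotated +KTS transcripts and the 2 without also differ in their first exons and ends, so these shares are assignments of whole transcripts and not counts of reads across the junction. Wt1os, the antisense gene whose start lies 18 bases from that of Wt1, was at 0.03 and 0.08 TPM, from 1 and 3 counts. Its reads were therefore few beside those of Wt1.

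**Figure D2:**
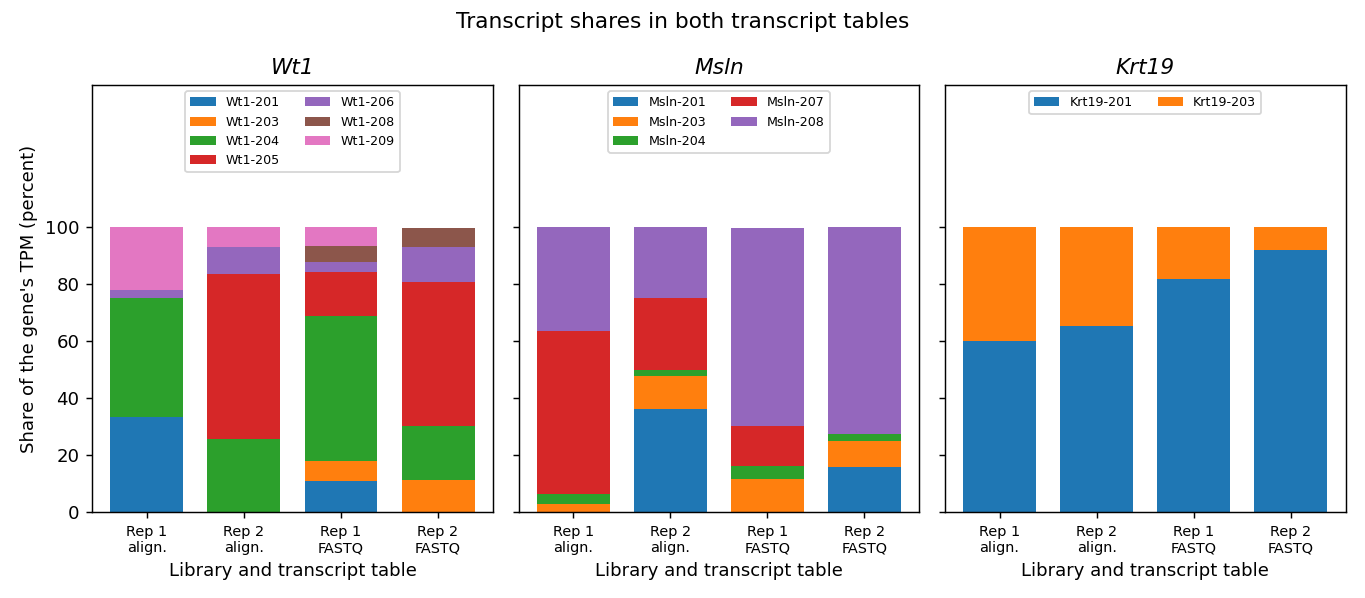
Share of the gene's TPM (percent) held by each transcript of Wt1, Msln and Krt19 in each library and transcript table. Wt1-204 leads in replicate 1 and Wt1-205 in replicate 2 in both tables, and Msln is led by different transcripts in the tables.

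The RNA of genes whose proteins are known to interact with WT1 was read as well. Of 11 listed partners, 10 reached 1 TPM in both animals, and Basp1, a corepressor of WT1, did not, at 0.27 and 0.39 TPM. The most abundant were Hspa4, a heat shock protein, at 37.2 ± 5.93 TPM, U2af2, a splicing factor that binds the +KTS form, at 22.3 ± 0.62 TPM, and Ciao1, a protein of iron-sulfur cluster assembly, at 21.2 ± 0.085 TPM. These genes are expressed in many cell types.

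Keratins form filaments from obligate pairs of a type II and a type I chain, and KRT8 (type II) with KRT18 or KRT19 (type I) is the pair of simple epithelia. Krt19 (chr11:100140810-100148665, minus strand) stood at 1.72 and 1.94 TPM, from 68 and 80 counts. Krt18 (chr15:102028180-102032027, plus strand) stood at 0.71 and 1.10 TPM, from 32 and 50 counts. Krt8 (chr15:101996698-102004482, minus strand) stood at 0.34 and 0.63 TPM, from 21 and 39.7 counts. For each the intervals of the animals overlapped. All 3 keratins were higher in replicate 2 in plain TPM, but on few counts.

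Krt18 and Krt19 exceeded Krt8. Krt18 was 2.09-fold and 1.75-fold above Krt8 in TPM, and Krt19 was 2.42-fold and 1.76-fold above Krt18. On the log2 scale Krt8 over Krt18 was -0.93 ± 0.18, and the FASTQ-derived table gave -0.93 ± 0.04. Other type II keratins were present. Krt7, also a mesothelial keratin, stood at 0.53 and 0.94 TPM from 39 and 68 counts. Krt80 was lower in replicate 2, at 0.92 and 0.60 TPM from 92 and 58 counts. Krt7 was named after its values were seen.

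The Krt19 values carry a limit, since 39.8% and 34.7% of its TPM went to Krt19-203, a transcript annotated as non-coding, and only 18.2% and 7.8% in the FASTQ-derived table. Krt8 shares 32.3% of its 31-base words with other genes on the same strand, nearly all with the pseudogene Krt8-ps, which was listed at 0 and 0.04 TPM. Krt18 shares 11.4%, mostly with the pseudogene Gm5200, listed at 0 in both. Reads of such stretches could be split between copies, so the levels of Krt8 and Krt18 are less certain than those of Upk3b and Lrrn4. Krt8 and Krt18 are neighbours on chromosome 15, 23697 bases apart on opposite strands. The lincRNA gene Gm36026, which overlaps the start of Krt8 on the opposite strand and runs into the gap between them, was at 0 in both libraries.

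Other keratins were mostly absent. Of 14 listed, 8 had no count and 2 reached 1 TPM in both animals: Krt222, an atypical keratin-like gene, at 9.63 ± 0.98 TPM, and Krt10, best known from skin, at 1.78 ± 0.48 TPM. Krt80 followed at 0.76 ± 0.23 TPM. Of 14 genes for keratin linkers and other intermediate filaments, 10 reached 1 TPM in both animals, led by Des, the desmin of muscle, at 493 ± 27.1 TPM, Dsp, the desmoplakin of desmosomes, at 211 ± 22.8 TPM, and Dst, dystonin, at 155 ± 24.3 TPM. These genes are also strongly expressed in cardiac muscle.

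The animals were then compared gene by gene. The log2 ratio of replicate 2 over replicate 1 (TPM + 0.1) was centred on its median over 11876 genes with a mean of at least 1 TPM and 20 counts in all. That median was -0.18, and the share of TPM from the mitochondrial chromosome was 35.2% in replicate 1 and 41.0% in replicate 2. Such ratios understate differences of low genes, and with 1 library per animal they have no replicate check. The central 90% of compared genes lay between -0.44 and 0.49.

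Of the 6 genes above the filter, 5 had a centred ratio above 0, as do 50% of compared genes by construction. The ratio was 0.92 for Lrrn4, 0.76 for Msln, 0.66 for Upk3b, 0.35 for Krt19, 0.26 for Upk1b and -0.49 for Wt1. The first 3 were at least 1.5-fold higher in replicate 2, against 3.23% of compared genes and 5.87% of those with a mean of 1 to 6 TPM. Without centring only Lrrn4 passed, with Msln at 0.57 and Upk3b at 0.47, and with a pseudocount of 1 in place of 0.1, 2 of the 6 passed, with Upk3b at 0.57. With centring none was 1.5-fold lower, against 2.55% of compared genes, or 2-fold apart, against 0.707% in each direction. Wt1 was more than 1.5-fold lower without centring, at -0.67, whereas its centred ratio by expected counts was -0.02.

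The counts gave similar ratios for the genes with most counts. Relative to the median gene, the count ratio was 1.59 for Upk3b (exact 95% counting interval 1.43 to 1.78), 1.62 for Msln (1.37 to 1.93) and 1.95 for Lrrn4 (1.59 to 2.39). It was 1.31 for Upk1b (0.906 to 1.89) and 1.33 for Krt19 (0.951 to 1.87), whose intervals include 1. These intervals cover counting error only, and reads lacking molecular identifiers may be copies of 1 molecule. No gene of the 8 was 1.5-fold apart between the gene table and the FASTQ-derived table in both animals, against 3.51% of compared genes. Summed over all 8 genes, counts were 29.6 and 42.8 per 1000000 counts. Relative to the median gene the ratio of these sums was 1.57 (1.46 to 1.69). Upk3b alone gave 563 of 1249 and 792 of 1733 counts, so this ratio is weighted to the genes with most counts. The intervals of Wt1, Upk1b and Krt19 include 1.

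Krt8 and Krt18 fell below the filter and are not in these counts. Their centred ratios were 0.91 and 0.75, and their count ratios 2.12 (1.24 to 3.85) and 1.76 (1.11 to 2.85). Among 4852 genes of a mean of 0.3 to 3 TPM and at least 20 counts, 12.2% were 1.5-fold or more higher in replicate 2, so ratios of this size are less rare at such levels.

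The deposited credibility intervals, which are not centred, were apart and higher in replicate 2 for Upk3b and Lrrn4 and for 1.44% of compared genes. They were apart and lower for 26.6% and for none of the 8. Ratios within 0.1 of that of Lrrn4 were found in 63 compared genes (0.5%), of Msln in 157 (1.3%) and of Upk3b in 273 (2.3%). For Wt1, Krt19 and Upk1b the numbers were 438, 1091 and 1669. Since each gene has a single ratio, no gene is named for a like pattern.

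**Figure D3:**
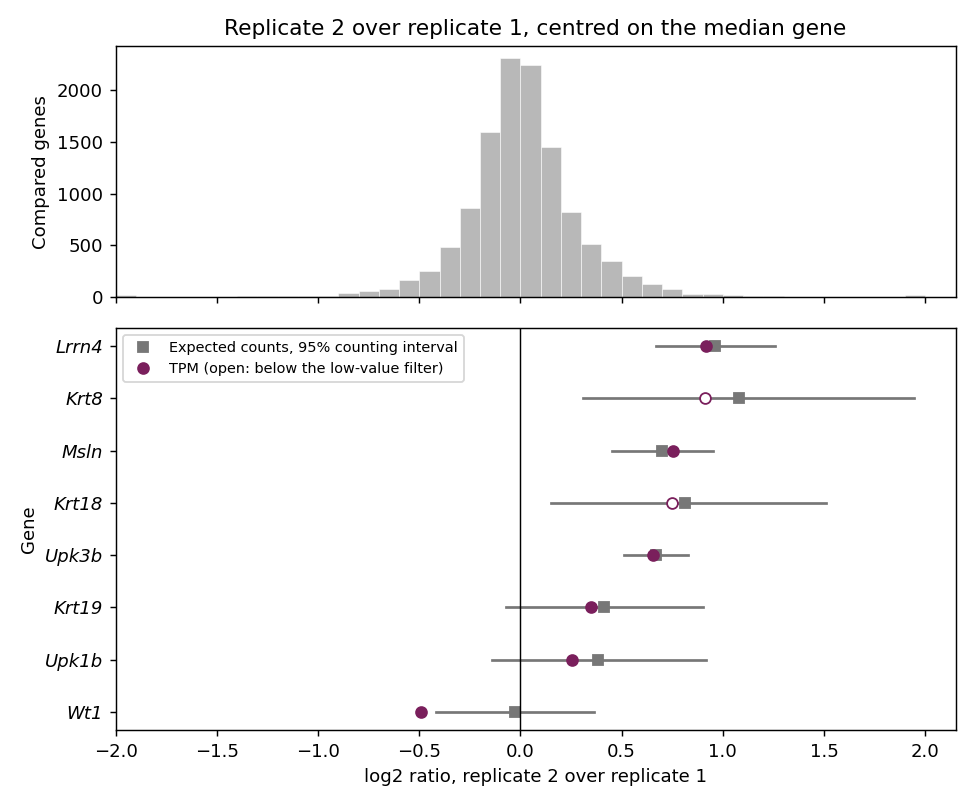
Centred log2 ratio of replicate 2 over replicate 1 for all compared genes (upper panel, number of genes per bin of 0.1, the end bins holding all genes beyond) and for the 8 genes (lower panel). Circles are TPM, open where the gene is below the low-value filter, and squares are expected counts with 95% counting intervals. For Wt1 the TPM lies at -0.49 while the count interval includes 0.

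Other genes of mesothelium above the filter mostly had a centred ratio above 0. Of 18 listed, 12 reached 1 TPM in both animals, and 11 of these 12 had a centred ratio above 0, with a median of 0.50. Of the 12, 2 were at least 1.5-fold higher in replicate 2. Centring raises each ratio: in plain TPM Pdpn was lower in replicate 2, at 1.83 and 1.65, and Aldh1a1 stood at 5.07 and 5.08. The rest of the 11 were higher in plain TPM too. Summed over the 18 genes, TPM was 169.9 and 166.6, with Cpe the largest part. The median ratio of the 6 compared epicardial and mesothelial genes was 0.50 too, and that of all compared genes is 0. Both sets were chosen with earlier results of these data known, so the like medians are a description only. The mesothelial list was led by Cpe, carboxypeptidase E, at 106.2 and 88.4 TPM. Its ratio of -0.08 was the only one below 0 among the 12. C3, the central complement protein, stood at 24.2 and 31.1 TPM (ratio 0.54), and Igfbp6, a binding protein of insulin-like growth factor II, at 7.72 and 10.3 TPM (0.60). Cpe, C3 and Igfbp6 are also made by fibroblasts and other cells. Muc16 had a ratio of 0.48. The 6 genes of the list below the filter were divided, with ratios of 0.91 for Krt7, 0.62 for Lrp2, 0.58 for Prr15, -0.07 for Bnc1, -0.18 for Slpi and -0.51 for Dmkn.

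The other genes listed as epicardial were divided. Of 11 listed, 10 reached 1 TPM in both animals, and 5 of 10 had a ratio above 0, with a median of 0.00 and a range of -0.33 to 0.44. Clu (clusterin) led at 239 ± 27.5 TPM, followed by Podxl (podocalyxin) at 26.4 ± 2.04 and Tbx5, a cardiac T-box factor, at 11.0 ± 0.74 TPM. The ends of the range, named for that position, were Tcf21, a factor of epicardium and fibroblasts, at 4.07 and 2.83 TPM, and Aldh1a2, the retinoic acid synthase of the epicardium, at 1.68 and 2.02 TPM. Tbx18, a classical epicardial factor named after its values were seen, was at 1.52 and 1.20 TPM. The part of other heart cells in the levels and ratios of this list was not tested.

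Of 16 genes of retinoic acid signalling and EMT, 11 were compared and 7 had a ratio above 0, with a median of 0.07. The highest were Zeb1 at 21.7 ± 2.20, the retinoid receptor gene Rxra at 18.5 ± 4.36 and Zeb2 at 16.3 ± 1.65 TPM. ZEB1 and ZEB2 are repressors that act in EMT, and all 3 genes are expressed in other cells of the heart. Aldh1a2 belongs to both lists.

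**Figure D4:**
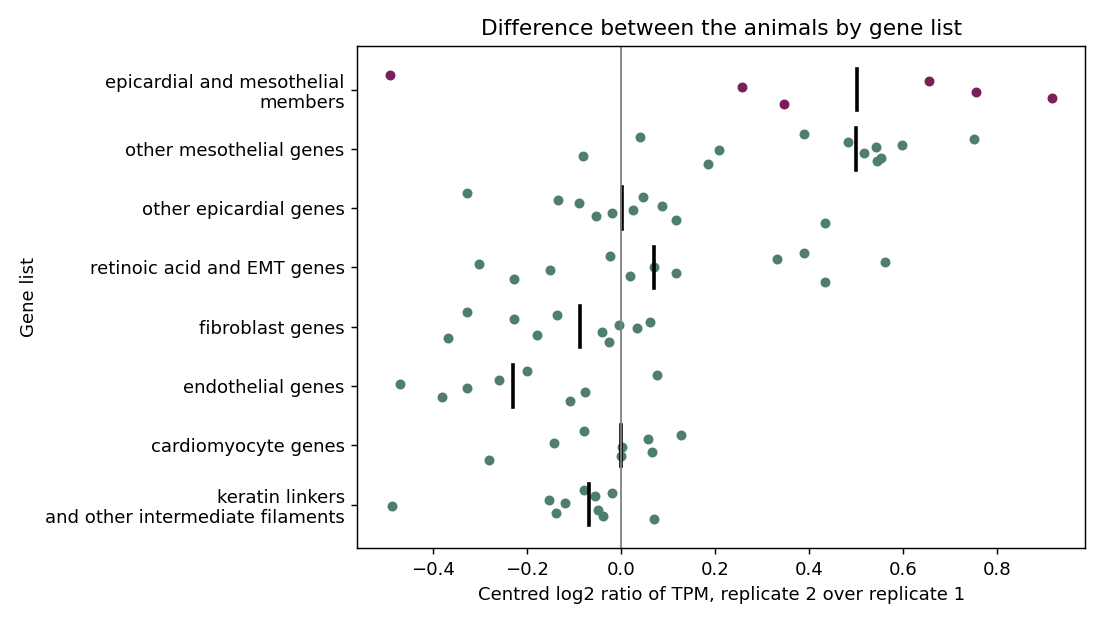
Centred log2 ratio of TPM, replicate 2 over replicate 1, for the compared genes of each list (points, 1 per gene) with the list's median (black bar). The medians of the epicardial and mesothelial members and of the other mesothelial genes are both 0.50, and those of the other lists drawn lie between -0.23 and 0.07. Among lists not drawn, the median is 0.14 for WT1 partners, -0.18 for other keratin genes and -0.25 for adipocyte genes. All lists were chosen with earlier results of these data known.

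Because the 8 genes are also used by other epithelia, genes of such tissues were read in the same libraries. Of 14 general epithelial genes, 9 averaged under 0.1 TPM. Epcam had no count in either library and Cdh1, the epithelial cadherin, stood at 0.02 and 0.05 TPM. The next in level were Grhl2, an epithelial transcription factor, at 0.19 and 0.60 TPM and Cdh3 at 0.26 and 0.28 TPM. The exception was Spint2, a protease inhibitor, at 18.6 ± 1.69 TPM.

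No lung epithelial gene of 10 reached 1 TPM, and the list summed to 0.23 and 0.34 TPM. The highest were Napsa at 0.12 and 0.21, Sftpc at 0.09 and 0.04 and Sftpa1 at 0 and 0.08 TPM. The bladder list of 8 summed to 0.88 and 0.45 TPM, led by Gata3 at 0.62 and 0.37 and Trp63 at 0.14 and 0.08 TPM, with Krt5 and Krt20 at 0. The thymus list of 9 summed to 0.25 and 0.20 TPM and was led by Cd4 at 0.20 and 0.16 TPM. Gata3 was above Krt8 in replicate 1. The part of these tissues in the levels of the 8 genes was not tested.

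Mesothelium that covers other structures in the chest expresses the same genes, and from these lists it and the epicardium cannot be told apart. Markers of fat and of the other cells of the heart were read beside them. The 8 adipocyte genes summed to 14.7 and 11.0 TPM, with 1 of 5 compared genes above 0 and a median of -0.25. Cfd (adipsin) stood at 7.56 and 4.93, Adig at 2.05 and 1.11 and Plin1 (perilipin) at 1.63 and 1.18 TPM, whereas Ucp1, the brown fat uncoupling protein named after its values were seen, stood at 0.74 and 1.44 TPM.

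The 8 endothelial genes summed to 256 and 189 TPM, with 1 of 8 above 0 and a median of -0.23. They were led by Egfl7 at 47.4 ± 13.0, Pecam1 at 38.1 ± 8.20 and Cdh5 at 37.5 ± 5.36 TPM. The 10 fibroblast genes summed to 470 and 403 TPM, with 2 of 10 above 0 and a median of -0.09, led by Gsn at 214 ± 19.7, Dcn at 113 ± 12.3 and Dpt at 27.2 ± 1.97 TPM. Of 8 cardiomyocyte genes, 4 were above 0, with a median of 0.00. They were led by Myl2 at 9141 ± 522, Myh6 at 8288 ± 745 and Actc1 at 4691 ± 1054 TPM. The part of these cell types in the higher mesothelial values of replicate 2 was not tested.

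**Figure D5:**
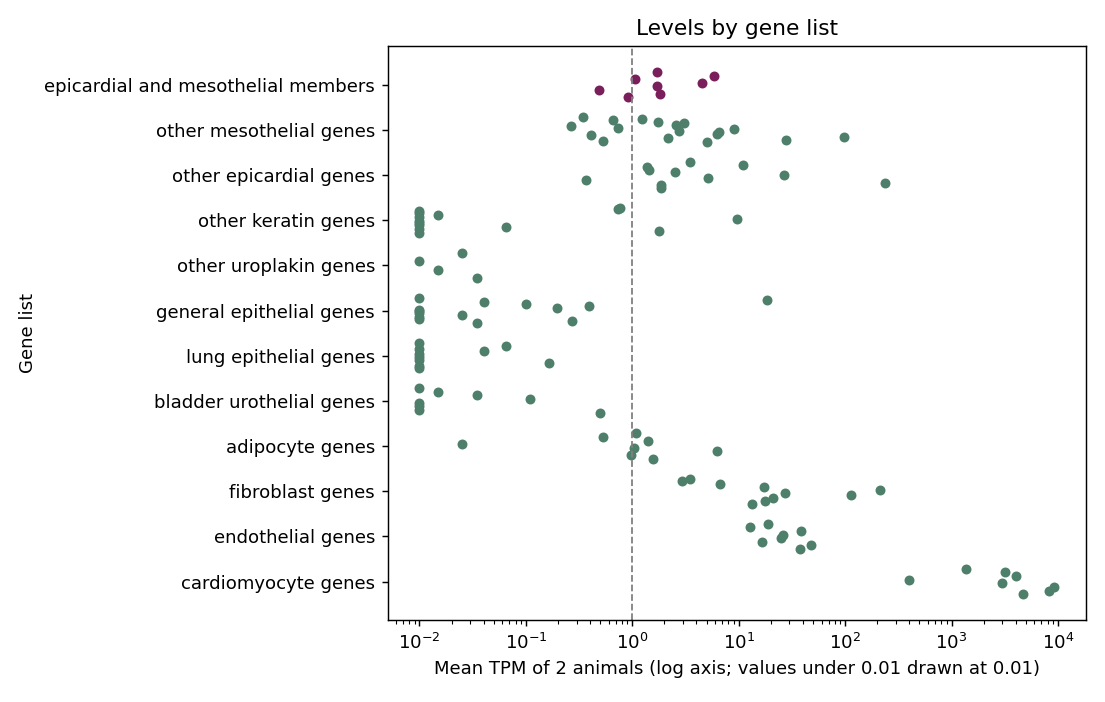
Mean TPM of 2 animals (log axis) for each gene of each list, with values under 0.01 drawn at 0.01 and a dashed line at 1 TPM. The 8 genes lie between 0.485 and 5.85 TPM, most general epithelial, lung and bladder genes lie far below them, and the cardiomyocyte genes lie at 399.7 TPM or more.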

How the data were processed

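Hearts of 2 animals were measured by total RNA sequencing with a directional library kit and ERCC spike-ins, per the labels' protocols. The deposited description files name mm10 as assembly and GENCODE M21 as annotation. Aligner and quantification tools: not given in the sources used here. Per the file headers, the gene tables and alignment-derived transcript tables hold expected counts and TPM made by the authors. The deposited isoform percent is the share of a gene held by each of its transcripts. The deposited TPM bounds are credibility intervals whose level is not stated there. Per the file headers, estimated counts and TPM fill the FASTQ-derived tables. Depth was 42223411 expected counts (43782858 FASTQ-derived) in replicate 1 and 40553237 (41468698) in replicate 2. Reads of the CAST/EiJ alleles may be assigned less well to mm10, and no allele was analysed.

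Levels, sums and shares were computed in Python 3.11.15 with pandas 2.3.3, NumPy 2.4.6 and SciPy 1.17.1, with figures by matplotlib 3.10.9. Ratios used TPM + 0.1, count ratios added 0.5 to each count, and counting intervals are exact (Clopper-Pearson, 95%). Limits for a count of 0 use 3 counts. Words of 31 bases and the KTS site were read from the GENCODE transcripts. The members and all gene lists were chosen with earlier results of these data known. The text names the 8 genes, the 3 genes of highest mean TPM of each list, genes under 0.1 TPM that define a list, and overlapping or near-identical genes. Other names were chosen with their values known. The alternatives tried were other TPM estimates, thresholds, pseudocounts, centrings, filters and leaving out each animal.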

Additional observations from a re-analysis of the deposited data

How the results depend on the processing

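Of 168 alternatives, 143 left the value within a set tolerance, 25 moved it and 0 reversed it. The tolerance was the SD for levels, shares and Krt8 over Krt18, and 1.5-fold for numbers of genes. It was a fixed step for the median ratio and followed the counting interval for the ratio of a gene. A level, share or Krt8 over Krt18 with 1 animal left out lies within the SD of 2 animals by construction. Levels and shares cannot be reversed, and numbers of genes were not judged for reversal. The summed TPM of the 8 genes was 51.5 when TPM was rescaled over nuclear protein-coding genes only, and 15.7 to 20.5 with 1 animal left out. At a threshold of 5 TPM, 0 of the 8 genes were expressed in both animals, and with 1 animal left out 6 to 7 were at 1 TPM or more. Without centring, 1 gene (Lrrn4) was 1.5-fold higher in replicate 2, against 1.42% of all compared genes, without a filter on low values 5 of 8 were, against 11.2%, and with a pseudocount of 1 there were 2 of 6, against 1.55%. The median ratio was 0.32 without centring, 0.65 in the FASTQ-derived table, 0.67 without a filter and 0.65 with a filter at 0.5 TPM. Krt8 over Krt18 ranged from -1.06 to -0.80 with 1 animal left out. Over 9 alternatives each, the ratio of Wt1 ranged from -0.67 to -0.02 (expected counts per 1000000), that of Upk1b from 0.07 to 0.86 (FASTQ-derived table), that of Upk3b from 0.47 to 0.68 and that of Lrrn4 from 0.65 to 0.99. The ratio cannot be computed with 1 animal left out. No paired analysis was possible because the series has 1 group. Depth limits Krt8, Krt18, Upk1b and Krt19 most, with 21 to 80 counts in a library.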
